A study of Mus musculus with 14 samples.

Results

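Endothelial identity genes are genes whose products mark the cells that line blood vessels: the proteins of their junctions and surface, their receptors and ligands, the transcription regulators that specify them, and proteins they secrete. A list of 32 such genes was taken, and every probe that carries their symbols in the platform annotation was used, which gave 49 probes among 45281 on the array. The array names 19057 genes in all. A gene entered the tests when at least 1 of its probes was detected (3 arrays or more with a detection p below 0.05), and its brightest detected probe then stood for it. By this rule 26 of the 32 genes were tested among 11394 genes.

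Endothelium comes from mesoderm, and the vessels of the early head form where angioblasts, its precursors, gather beside the neural tube and link into a network. In the mouse the ETS factor ETV2 is needed to specify these precursors, after which FLI1, ERG and ETS1 and the SOX factors SOX7 and SOX18 sustain endothelial genes. Cells of the new vessels bind one another through VE-cadherin (Cdh5), PECAM1, ESAM and the tight junction protein claudin 5 (Cldn5), and they receive signals through the receptors TIE1 and TEK.

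RNA came from whole mouse heads at E8.5 with 5 to 7 somites, of mixed C57Bl/6, 129 and BALB/c background, and 14 Illumina bead arrays hold 4 genotypes. Control heads were Twist1flox/+ without Cre (Mesp1+/+, n = 4). CM-Het heads had the same Twist1 alleles together with Mesp1Cre/+ (n = 3). Het heads were Twist1flox/del without Cre (Mesp1+/+, n = 3), and CM-CKO heads were Twist1flox/del with Mesp1Cre/+ (n = 4). All 4 groups therefore carry a floxed allele of Twist1, which encodes a bHLH factor active in head mesenchyme, and none is wild type at both copies. Cre expressed from Mesp1 acts in early mesoderm and its descendants, among them endothelium and heart. In those cells it deletes the floxed Twist1 copy. In a Mesp1Cre/+ animal 1 copy of Mesp1 carries the Cre insertion. A difference with Cre therefore holds Cre, that insertion and the loss of the floxed copy, which cannot be told apart. Beadchip 1 held the CM-Het and Het arrays, beadchip 2 the Control arrays with CM-CKO 1 and 2, and beadchip 3 held CM-CKO 3 and 4. The labels do not say whether the arrays of a genotype hold different embryos or litters, so a p-value covers the spread among these samples alone, which may be technical.

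Twist1 signal followed the genotypes: on the log2 scale it lay between 9.13 and 9.55 in Control, 8.55 and 8.81 in CM-Het, 8.46 and 8.70 in Het and 7.65 and 7.96 in CM-CKO. Of markers for the labelled tissue, 10 of 12 head mesenchyme genes and 9 of 10 neural tube genes were tested. Of the endothelial genes themselves, the defining genes Cdh5, Pecam1, Tek, Cldn5 and Emcn were detected on all 14 arrays and Tie1 on 13. Signals are given as log2 values after background correction and quantile normalization, each for 1 probe, so levels are compared between arrays and never between genes. In a whole head fewer endothelial cells and less RNA per cell cannot be told apart.

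RefSeq promoter windows (assembly GRCm38.p6, 250 bases before to 50 after a gene's start) were on hand for 16 of the 32 genes, 20 windows in all. Those of the 3 genes that passed the test between CM-CKO and Control are shown because these genes carry the main comparison. They lie at chr16:18776597-18776896 (Cldn5, plus strand), chr2:26580833-26581132 (Egfl7, plus strand, the most upstream of 3 windows) and chr13:113209409-113209708 (Esm1, plus strand). Capitals mark any match to the searched motifs.
Cldn5: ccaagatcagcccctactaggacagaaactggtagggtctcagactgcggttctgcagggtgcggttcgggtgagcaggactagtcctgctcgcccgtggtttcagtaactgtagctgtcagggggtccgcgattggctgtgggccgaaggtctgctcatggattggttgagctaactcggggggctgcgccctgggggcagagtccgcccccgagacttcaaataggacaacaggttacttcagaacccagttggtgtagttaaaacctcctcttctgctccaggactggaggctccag
Egfl7: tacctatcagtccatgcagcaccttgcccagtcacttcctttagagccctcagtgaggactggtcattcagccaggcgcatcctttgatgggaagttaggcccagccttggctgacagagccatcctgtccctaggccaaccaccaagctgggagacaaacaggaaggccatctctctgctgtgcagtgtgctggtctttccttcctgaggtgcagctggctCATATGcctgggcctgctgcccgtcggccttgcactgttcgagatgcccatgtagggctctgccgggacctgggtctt
Esm1: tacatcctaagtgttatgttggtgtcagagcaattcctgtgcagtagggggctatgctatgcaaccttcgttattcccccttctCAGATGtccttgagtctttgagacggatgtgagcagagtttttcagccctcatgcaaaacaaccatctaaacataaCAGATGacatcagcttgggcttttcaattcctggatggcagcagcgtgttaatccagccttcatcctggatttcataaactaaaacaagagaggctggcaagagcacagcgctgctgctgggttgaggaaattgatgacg

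Each motif was searched on both strands. The motif CCGGAA is a core bound by ETS factors. The motif AACAAT is a core bound by SOX factors, and the motif AGATAA is bound by GATA factors. The remaining motifs were the palindromic E-box CATATG and a further E-box, CATCTG, whose opposite strand reads CAGATG. E-boxes are sequences of the kind bound by bHLH dimers such as those of TWIST1. None of these motifs contains another. The Cldn5 window held 0 matches, the Egfl7 window shown held 1 CATATG, and the Esm1 window held 2 CAGATG. The other Egfl7 windows held 0 matches to any of the motifs. Over the 20 windows, CCGGAA was in 0 (14.9% of all 32817 windows hold it), AACAAT in 3 (10.7%), CATATG in 1 (3.92%), the E-box CATCTG on either strand in 4 (17.2%) and AGATAA in 2 (11.2%). A match is a description of the letters in these windows only.

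CM-CKO against Control compared heads with Cre and a deleted Twist1 copy with heads that had neither. Of the 26 genes tested, 23 lay lower in CM-CKO, with a median log2 difference of -0.28. Over all 11394 genes the median was 0.00, and 49.4% lay lower. RNA signal fell for Cldn5 (claudin 5) and Egfl7, which encodes a secreted protein. It rose for Esm1, which encodes a secreted proteoglycan, and the other 23 genes did not pass the test. These 3 calls (limma, adjusted p under 0.05) stand beside 0.702% of all genes called in this comparison, 0.518% lower and 0.184% higher. At an unadjusted p under 0.05, 11 genes lay lower and 2 higher, where 5.92% and 5.27% of all genes did so.

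**Figure D1:**
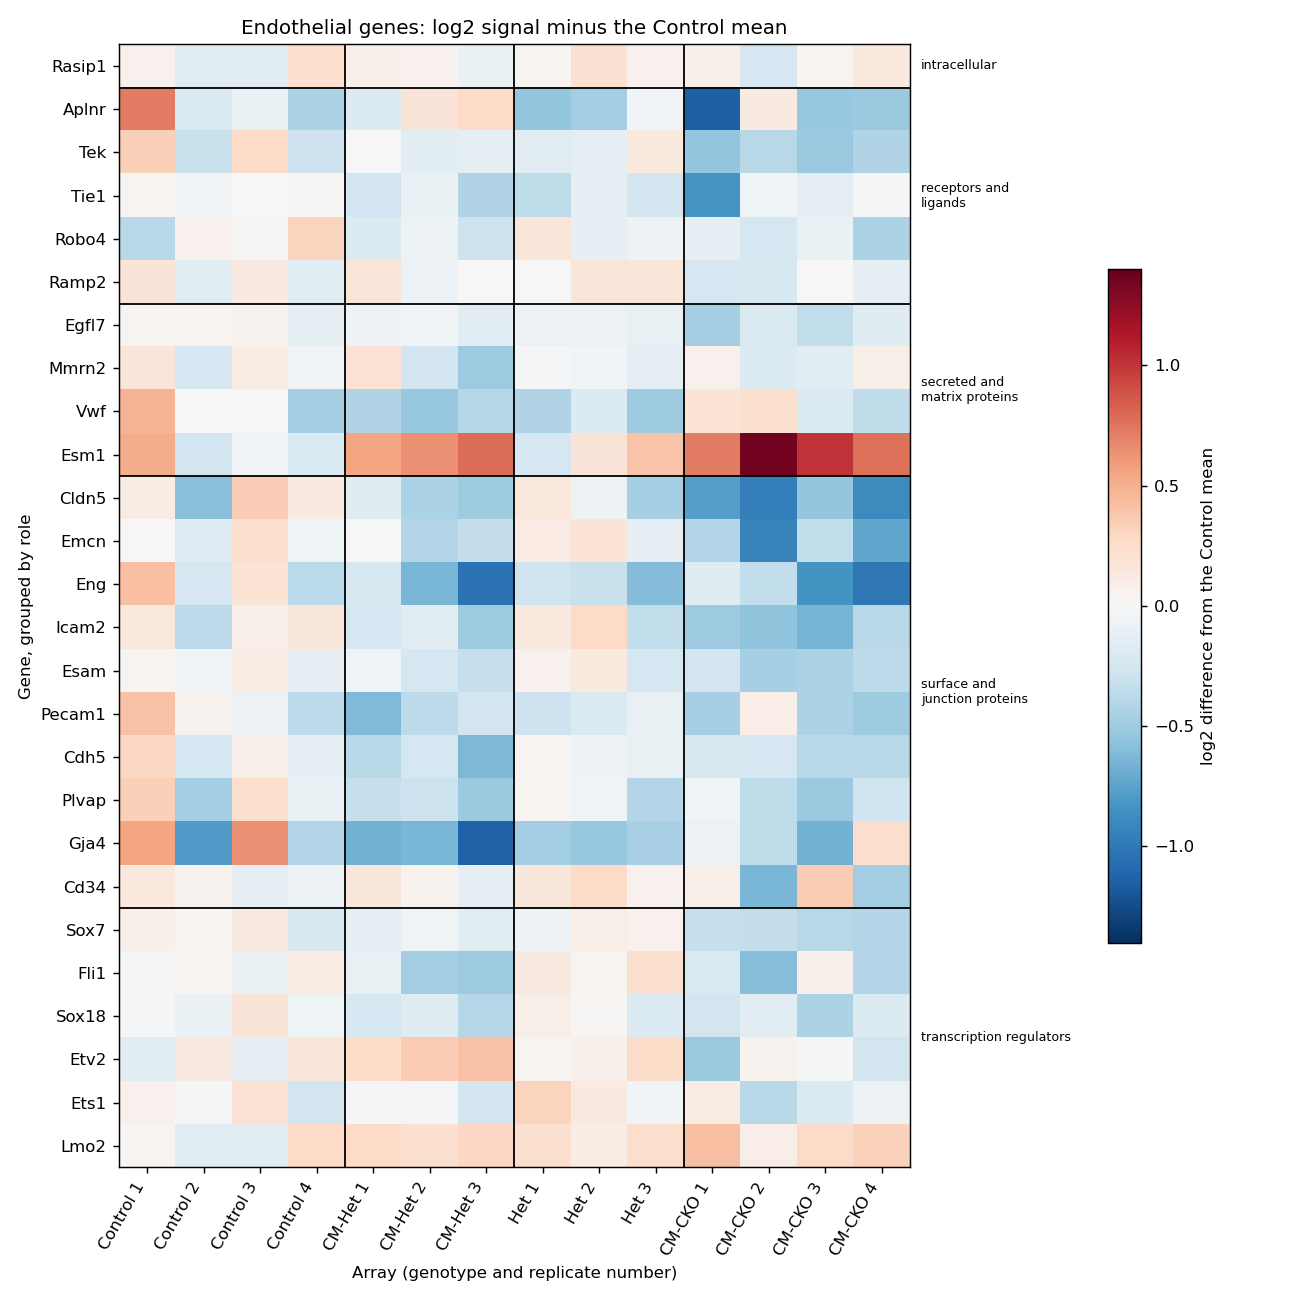
Log2 signal of each tested endothelial gene (rows, grouped by role) minus its mean over the 4 Control arrays, for all 14 arrays (columns, by genotype). Blue cells lie below and red cells above the Control mean; the CM-CKO columns are mostly blue except for Esm1 and Lmo2, and Control 2 is bluer than the other Control columns.

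Among the 12 genes for surface and junction proteins, 10 were tested, and all 10 had a lower mean in CM-CKO than in Control (median log2 difference -0.36, 1 called). Claudin 5 seals tight junctions and later the blood-brain barrier. Cldn5 signal was 7.84, 7.16, 8.09 and 7.86 in Control 1 to 4, 7.57, 7.30 and 7.23 in CM-Het 1 to 3, 7.89, 7.67 and 7.27 in Het 1 to 3, and 6.97, 6.78, 7.19 and 6.84 in CM-CKO 1 to 4. All CM-CKO arrays lay under 7.20, and Control 2 at 7.16 was the only Control array among them. Cldn5 fell by 0.79 on the log2 scale, a 1.73-fold difference (SE 0.18, limma adjusted p = 0.0462). The exact permutation p was 0.0571, two-sided, where 0.0286 is the smallest that 4 against 4 arrays allow.

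Endomucin (Emcn) is a sialomucin of the surface of capillary and venous endothelium. Its signal was 7.98, 7.81, 8.23 and 7.93 in Control, 7.98, 7.57 and 7.66 in CM-Het, 8.10, 8.18 and 7.87 in Het, and 7.58, 7.06, 7.65 and 7.26 in CM-CKO, in the order of the array numbers. Every CM-CKO array lay below every Control and every Het array. The log2 difference from Control was -0.60 (SE 0.14), and its limma adjusted p of 0.0549 missed the threshold.

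ESAM is an adhesion protein of endothelial tight junctions. Esam signal was 9.16, 9.07, 9.22 and 9.0 in Control, 9.05, 8.88 and 8.79 in CM-Het, 9.17, 9.25 and 8.87 in Het, and 8.85, 8.66, 8.67 and 8.75 in CM-CKO. Here too no CM-CKO array reached the lowest Control or Het array, although Het 3 at 8.87 came close to CM-CKO 1 at 8.85. The difference from Control was -0.38 (SE 0.09, limma adjusted p = 0.0679).

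ICAM2 is an adhesion protein of endothelial cells and platelets that binds leukocyte integrins. Icam2 signal was 7.24, 6.74, 7.17 and 7.26 in Control, 6.86, 6.95 and 6.60 in CM-Het, 7.24, 7.38 and 6.76 in Het, and 6.59, 6.54, 6.45 and 6.71 in CM-CKO. Control 2 and Het 3 stood apart from their groups and near the CM-CKO arrays, which still lay below all of them. The difference from Control was -0.53 (SE 0.15, limma adjusted p = 0.142).

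VE-cadherin (Cdh5) is the main adherens junction protein of endothelium. Cdh5 signal was 7.88, 7.34, 7.67 and 7.45 in Control, 7.20, 7.35 and 6.96 in CM-Het, 7.63, 7.52 and 7.49 in Het, and 7.36, 7.35, 7.20 and 7.20 in CM-CKO. Both groups with Cre lay below all Het arrays, and Control 2 overlapped them. The CM-CKO difference from Control was -0.31 (SE 0.12, limma adjusted p = 0.331), and another detected Cdh5 probe read -0.43 (SE 0.16). Between CM-CKO and Het that other probe read only -0.02 (SE 0.17).

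Eng, which encodes endoglin, a co-receptor for TGF-beta and BMP ligands, ranged from 5.82 to 6.62 in Control and from 5.20 to 6.04 in CM-CKO. Its difference was -0.59 (SE 0.21, limma adjusted p = 0.295). Pecam1, which encodes an adhesion protein, lay between 5.52 and 6.29 in Control and between 5.39 and 5.98 in CM-CKO, and the groups overlapped. A second detected Pecam1 probe read -0.46 (SE 0.18). The sialomucin gene Cd34 ranged more widely in CM-CKO (4.89 to 5.89) than in Control (5.41 to 5.67). The diaphragm protein gene Plvap overlapped between these groups as well.

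The gap junction gene Gja4, which encodes a connexin of arterial endothelium, varied most among arrays of 1 genotype (pooled SD 0.46, against a median of 0.21 over the 26 genes and 0.16 over all genes). It read 6.97, 5.63, 7.06 and 6.01 in Control, 5.76, 5.78 and 5.28 in CM-Het, 5.93, 5.89 and 5.96 in Het, and 6.34, 6.06, 5.76 and 6.66 in CM-CKO. Control 1 and 3 were the high arrays, Control 4 lay within the range of CM-CKO, and Control 2 lay below every CM-CKO array. No comparison called Gja4.

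**Figure D2:**
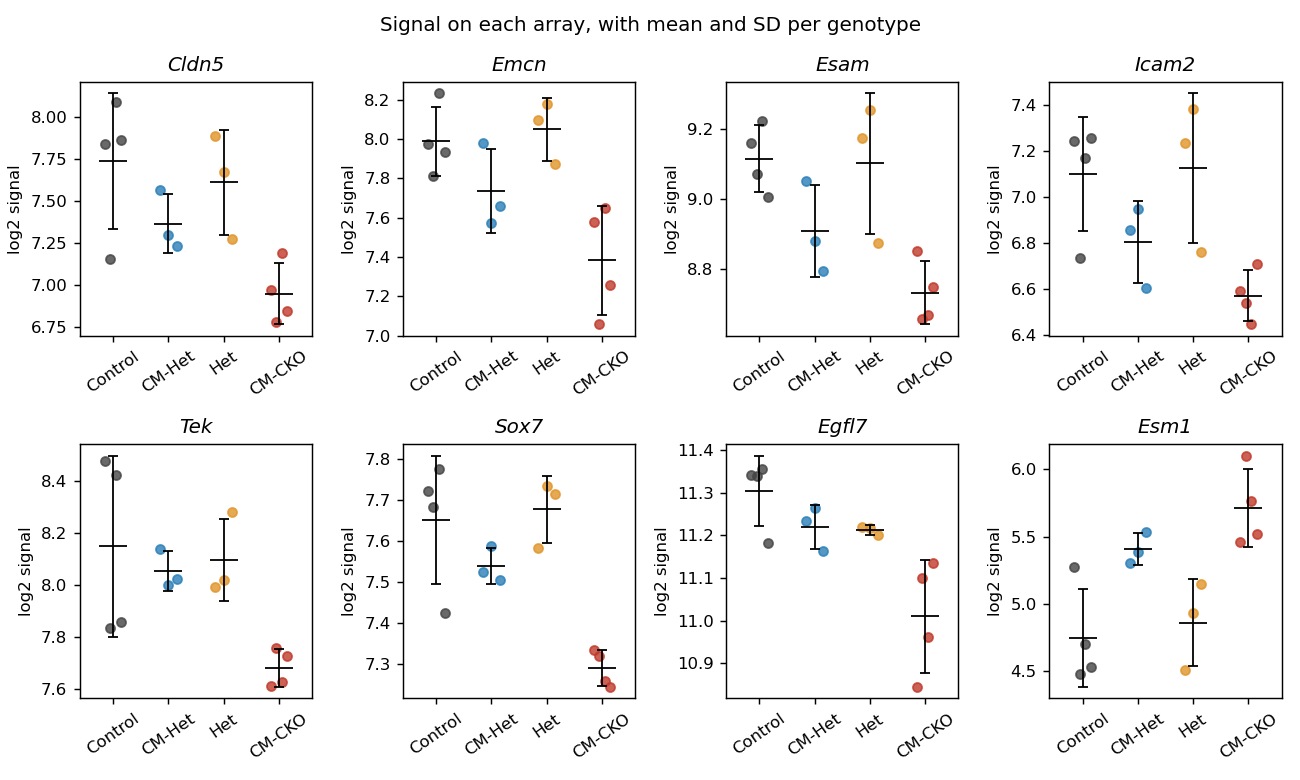
Log2 signal of 8 endothelial genes on each array (points), with the mean (wide bar) and SD (error bars) per genotype; each panel has its own vertical range, which does not start at 0. In the panels for Emcn, Esam, Icam2, Tek, Sox7 and Egfl7 all CM-CKO points lie below all Control points, and in the panel for Esm1 they lie above them.

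Of 8 genes for receptors and ligands, 5 were tested, and all 5 had a lower mean in CM-CKO than in Control (median log2 difference -0.26, 0 called by limma). TEK, also called TIE2, is the receptor for angiopoietins. Tek signal was 8.48, 7.83, 8.42 and 7.86 in Control, 8.14, 8.0 and 8.02 in CM-Het, 7.99, 8.02 and 8.28 in Het, and 7.61, 7.76, 7.62 and 7.72 in CM-CKO. The CM-CKO arrays lay close together and below all arrays of the other 3 genotypes, while the Control arrays split into a high and a low pair. The difference from Control was -0.47 (SE 0.13, limma adjusted p = 0.154).

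Tie1, which encodes the orphan partner of TEK, was close to background and was detected on 13 arrays. Its signal lay between 5.37 and 5.45 in Control and between 4.59 and 5.39 in CM-CKO. The apelin receptor gene Aplnr, active in venous precursors, read 9.09, 8.17, 8.26 and 7.91 in Control and 7.22, 8.49, 7.83 and 7.84 in CM-CKO. CM-CKO 2 lay inside the Control range and CM-CKO 1 far below it, and the difference of -0.52 had an adjusted p of 0.442 by limma. The vascular guidance receptor gene Robo4 and Ramp2, whose product pairs with the adrenomedullin receptor, overlapped between the groups.

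Of 7 transcription regulators, 6 were tested, and 5 had a lower mean in CM-CKO than in Control (median log2 difference -0.22, 0 called by limma). SOX7 is an endothelial SOX factor. Sox7 signal was 7.72, 7.68, 7.78 and 7.43 in Control, 7.52, 7.59 and 7.50 in CM-Het, 7.58, 7.73 and 7.72 in Het, and 7.34, 7.32, 7.26 and 7.25 in CM-CKO. All other arrays lay above the highest CM-CKO array. The difference from Control was -0.36 (SE 0.09, limma adjusted p = 0.0988), and the other detected Sox7 probe read -0.35 (SE 0.14).

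Sox18, a partner of Sox7 in vessel formation, lay between 7.75 and 8.02 in Control and between 7.40 and 7.69 in CM-CKO, with no overlap. Its difference was -0.26 (SE 0.10, limma adjusted p = 0.334). The ETS factor genes Fli1 (-0.29), Etv2 (-0.19) and Ets1 (-0.14) all overlapped between these groups. Lmo2, a bridging cofactor in the TAL1 complex of blood and vessel precursors, went the other way: its difference was 0.28 (SE 0.09, limma adjusted p = 0.252).

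All 4 genes for secreted and matrix proteins were tested, and this group held calls in both directions. EGFL7 is secreted by endothelium and shapes the tube of a new vessel. Egfl7 signal was 11.34, 11.34, 11.36 and 11.18 in Control, 11.23, 11.26 and 11.16 in CM-Het, 11.22, 11.22 and 11.20 in Het, and 10.84, 11.10, 10.96 and 11.13 in CM-CKO. Every other array lay above the highest CM-CKO array, and within-group spread was the smallest of the 26 genes (pooled SD 0.09). Egfl7 fell by 0.29 on the log2 scale, a 1.23-fold difference (SE 0.06, limma adjusted p = 0.0416). Its other detected probes disagreed with each other: one read -0.37 (SE 0.10) and the other, detected on 5 arrays, read 0.12 (SE 0.16).

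ESM1, also called endocan, is a proteoglycan of sprouting tip cells. Esm1 signal was 5.27, 4.48, 4.70 and 4.54 in Control, 5.30, 5.39 and 5.53 in CM-Het, 4.51, 4.93 and 5.15 in Het, and 5.46, 6.10, 5.76 and 5.52 in CM-CKO. All CM-CKO arrays lay above all Control and Het arrays, and all CM-Het arrays lay above all Het arrays. Esm1 rose by 0.96 on the log2 scale, a 1.95-fold difference (SE 0.19, limma adjusted p = 0.0178). The probe was near background, detected on 2 of 4 Control, 3 of 3 CM-Het, 2 of 3 Het and 4 of 4 CM-CKO arrays.

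Mmrn2, which encodes an endothelial matrix protein, differed by -0.05 between CM-CKO and Control, and the groups overlapped. Vwf, which encodes von Willebrand factor, was detected on 5 arrays, of which 3 were Control and 2 CM-CKO. It was not above background on any CM-Het or Het array, so its level there is only a bound. By the group means, Control was at least 1.13-fold above CM-Het (limma adjusted p = 0.263) and at least 1.11-fold above Het (limma adjusted p = 0.437). CM-CKO was at least 1.10-fold above CM-Het (limma adjusted p = 0.453) and at least 1.08-fold above Het (limma adjusted p = 0.720). The Control and CM-CKO means also hold arrays not above background. None of these differences passed the test, so the bounds describe these means only. Rasip1, a small GTPase effector needed for the vessel lumen, differed from Control by 0.00.

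Separation of the arrays gives another view of the same contrast. In 7 of 26 genes (Esam, Icam2, Emcn, Tek, Sox7, Sox18 and Egfl7) every CM-CKO array lay below every Control array, where 2.88% of all genes did so. Esm1 alone lay above on every array, where 2.56% of all genes did so. Each of these 8 genes had the smallest exact permutation p that 4 against 4 arrays allow, 0.0286. Full separation of the arrays fixes that value, so it adds nothing to the separation.

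The calls rest on few arrays. Leaving out any 1 array moved the number of genes with a lower mean between 21 and 24. Cldn5 and Egfl7 each lost their call without any of 11 arrays (CM-CKO 4 left out gave Cldn5 the highest limma adjusted p, 0.145, and CM-CKO 3 gave Egfl7 0.146), and Esm1 without any of 5 (highest 0.0623, without Control 4). With the beadchip as a fixed block the median was -0.233. All Control arrays were on beadchip 2, so this fit takes the difference from that beadchip (2 CM-CKO and 4 Control arrays). Beadchip 2 alone therefore gave the same median, which is no separate result. In the fixed-block fit Cldn5, Egfl7 and Esm1 differed by -0.86, -0.33 and 1.03, and none was called (limma adjusted p = 0.187, 0.14 and 0.111). On beadchip 2 alone their limma adjusted p was 0.532, 0.546 and 0.467. When the beadchip entered as a random effect instead, all 3 were called (limma adjusted p = 0.0372 for Cldn5, 0.0340 for Egfl7 and 0.0133 for Esm1). Emcn was called too. The estimated correlation within beadchips was below 0 (-0.0585), so this fit is no adjustment for a shared beadchip shift. Calls over all genes rose with it, from 47 to 277 in CM-Het against Control.

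**Figure D3:**
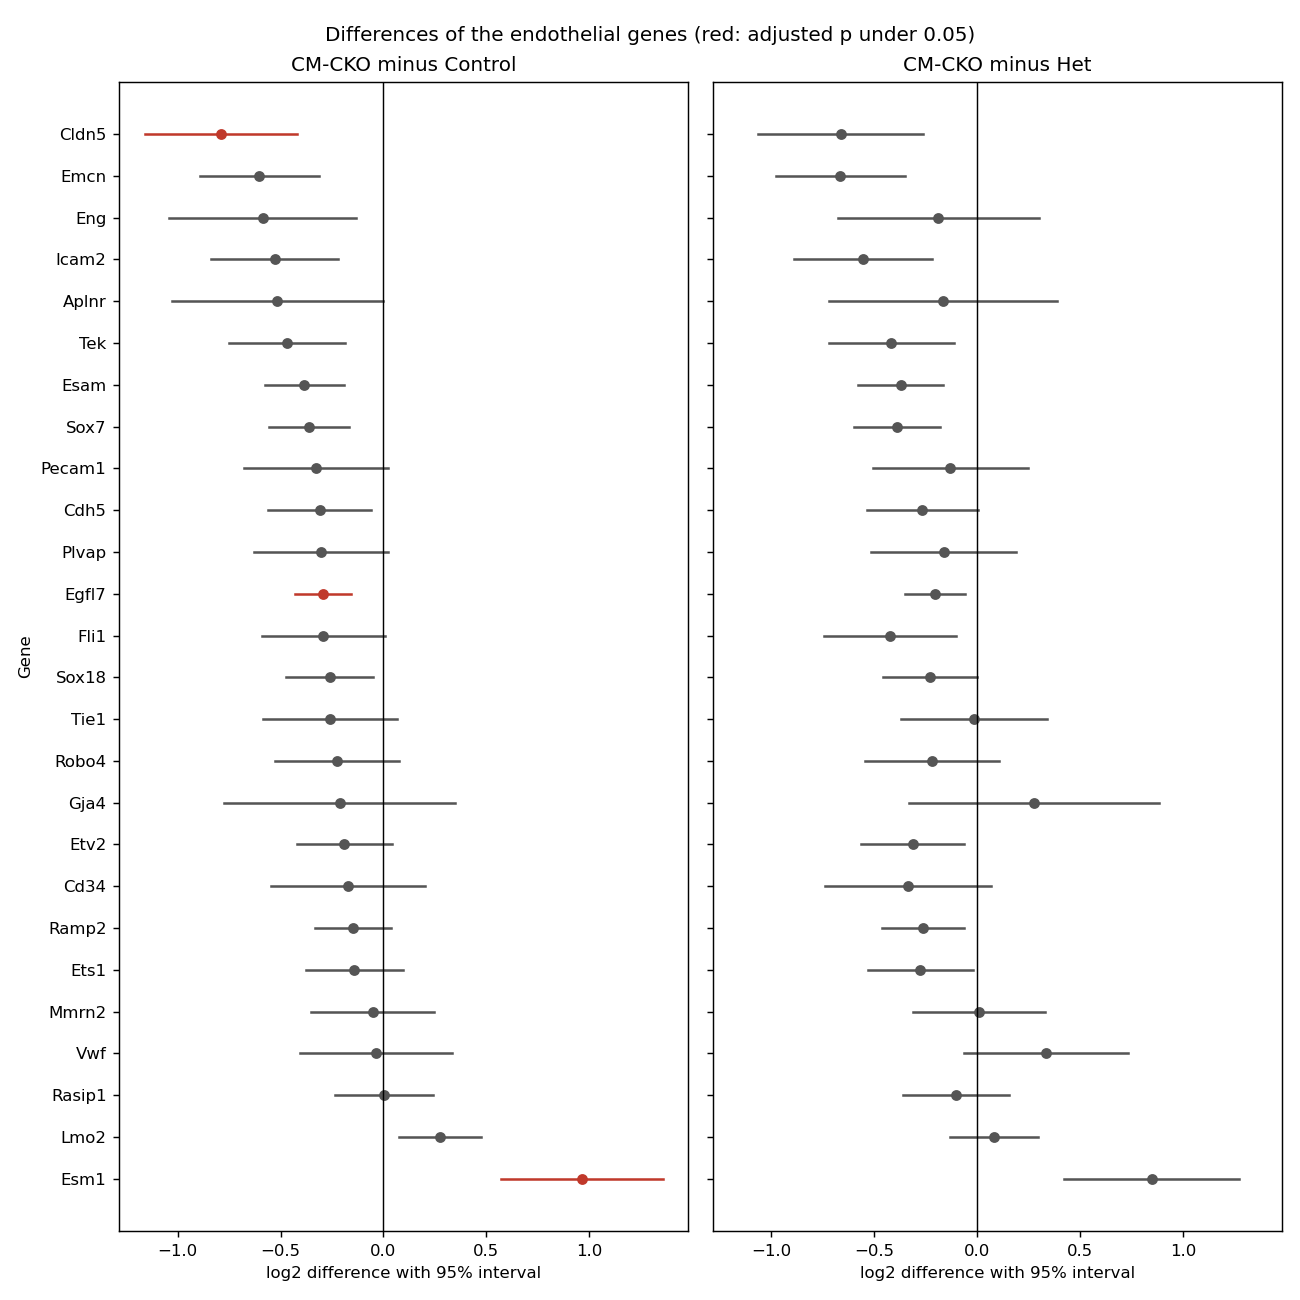
Log2 difference of each tested endothelial gene with its 95% interval, for CM-CKO minus Control (left) and CM-CKO minus Het (right), in the order of the left panel; red marks an adjusted p under 0.05. Cldn5, Egfl7 and Esm1 are red at the left, none is red at the right, and most points in both panels lie left of 0. Vwf was not above background in Het, so its point at the right is no measured difference.

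Markers of other tissues moved among the same arrays. Head mesenchyme genes, which mark the tissue where Twist1 is active, lay lower in CM-CKO than in Control in 10 of 10 tested (median log2 difference -0.99). Limma called 5 of them lower (Alx4, Pdgfra, Snai2, Twist2 and Tcf15), where 0.518% of all genes were called lower. The mean signal of the head mesenchyme genes lay between 6.72 and 7.48 in Control and 6.02 and 6.35 in CM-CKO, with no overlap. It lay between 6.52 and 6.95 in CM-Het and between 6.4 and 6.62 in Het. Of 9 neural tube genes 2 lay lower (median 0.01), and limma called 0. The part of the head mesenchyme genes in the endothelial differences was not tested. Control 1 and 3 had the highest mean signal of the 26 endothelial genes, 7.62 and 7.53, against 7.29 in Control 2 and 7.35 in Control 4. They also had the highest heart muscle signal of all arrays, a mean over 11 of 13 heart muscle genes of 9.34 and 9.03, against 6.94 and 6.72. Control 1 was highest of its group in 12 of the 26 genes, Control 3 in 8, and Control 2 lowest in 14. The mean of 7 of 10 yolk sac endoderm genes was 7.80 in Control 1 and between 4.87 and 6.15 on the other arrays.

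The mean endothelial signal in CM-CKO was 7.22, 7.22, 7.21 and 7.18, below every Control and every Het array, while CM-Het 3 read 7.18. The heart muscle mean in those 4 CM-CKO arrays ranged from 6.38 to 8.62. Primitive erythroid genes (8 of 9 tested) had a mean of 8.07 in CM-CKO 1 and between 4.79 and 6.21 on the other arrays. Of the markers of platelets and their precursors 1 of 8 was tested, and of blood progenitors 1 of 5 and of myeloid cells 1 of 6.

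**Figure D4:**
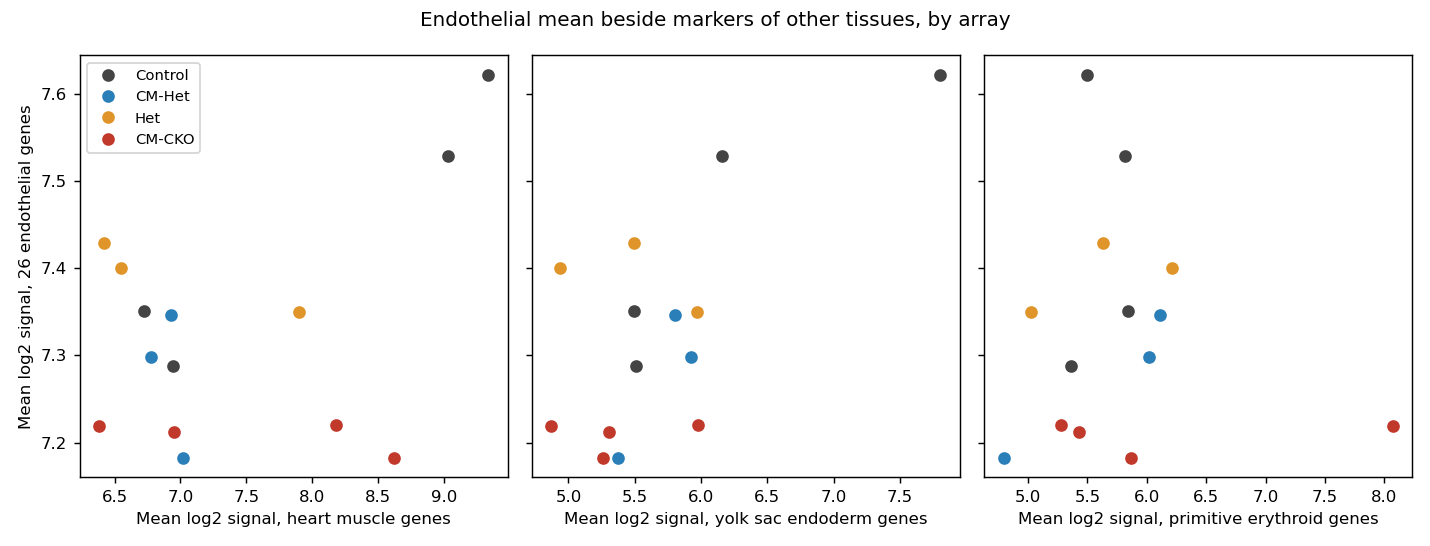
Mean log2 signal of the 26 tested endothelial genes (vertical axis, same in all panels) against the mean of heart muscle, yolk sac endoderm and primitive erythroid genes (horizontal axes); each point is 1 array, coloured by genotype. Control 1 and 3 lie highest in the endothelial mean and in the heart muscle mean, and the 4 CM-CKO points lie below all Control and Het points.

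With the heart muscle mean as a covariate, 24 of 26 genes lay lower in CM-CKO than in Control (median log2 difference -0.267), and limma called Egfl7, Emcn and Esm1. With the yolk sac endoderm mean as a covariate 21 lay lower (median -0.192), and only Esm1 was called. Without Control 1 and Control 3, an alternative chosen after seeing the data, 20 of 26 lay lower (median -0.176). Esm1 was then called alone, and Cldn5 and Egfl7 differed by -0.56 and -0.25 (limma adjusted p = 0.348 and 0.288).

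CM-CKO against Het compared heads that share the floxed and the deleted Twist1 copies by genotype and differ by Mesp1-Cre. Cre deletes the floxed copy in mesoderm, so its loss and Cre itself cannot be told apart here. The comparison uses the same CM-CKO arrays as the one above. Of 26 genes, 21 lay lower in CM-CKO (median log2 difference -0.23, against 0.01 over all genes). Limma called 0 of them, where 0.219% of all genes were called. At an unadjusted p under 0.05, 12 lay lower and 1 higher, where 4.04% and 3.95% of all genes did so.

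Emcn came nearest to the threshold with a difference of -0.66 (SE 0.15, limma adjusted p = 0.0994), followed by Esm1 with 0.85 (SE 0.20, limma adjusted p = 0.125). Sox7 (-0.39), Esam (-0.37), Cldn5 (-0.66), Icam2 (-0.55), Egfl7 (-0.20), Tek (-0.42), Ramp2 (-0.26), Fli1 (-0.42), Etv2 (-0.31) and Ets1 (-0.28) completed the 12 genes with the smallest p. Of the 6 transcription regulators tested, 5 lay lower at an unadjusted p under 0.05 here, and 2 did so against Control. The difference between those counts was not tested, and both comparisons use the same CM-CKO arrays.

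Every CM-CKO array lay below every Het array in 8 of 26 genes (Cldn5, Cdh5, Esam, Icam2, Emcn, Tek, Sox7 and Egfl7), where 4.11% of all genes did so. For Cdh5 this rests on the tested probe, which differed by -0.27 (SE 0.13). The other detected Cdh5 probe differed by -0.02 (SE 0.17). Esm1 lay above on every array, where 4.13% of all genes did so. Het arrays were on beadchip 1 and CM-CKO arrays on beadchips 2 and 3, so beadchip and genotype cannot be told apart in this comparison.

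CM-CKO against CM-Het compared heads that share Cre and differ in the second Twist1 copy, deleted or wild type. The list as a whole lay near 0: 14 of 26 genes were lower in CM-CKO and 12 higher (median log2 difference -0.02, against 0.01 over all genes). Limma called 0, where 0.211% of all genes were called, and 7 lay lower and 1 higher at an unadjusted p under 0.05, where 5.20% and 5.35% of all genes did so. The 1 higher gene was Vwf, which was not above background on any CM-Het array, so that count holds no measured difference.

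Etv2 stood nearest to the threshold. ETV2 acts early and briefly in endothelial precursors. Etv2 signal was 9.88, 9.98 and 10.04 in CM-Het, 9.67, 9.69 and 9.89 in Het, 9.46, 9.75, 9.49 and 9.79 in Control, and 9.11, 9.67, 9.59 and 9.37 in CM-CKO. CM-Het was the highest genotype, and its lowest array lay above every CM-CKO array. The difference between CM-CKO and CM-Het was -0.53 (SE 0.12, limma adjusted p = 0.0866). Against Control, CM-Het differed by 0.34 (SE 0.12, limma adjusted p = 0.188) and CM-CKO by -0.19.

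Every CM-CKO array lay below every CM-Het array in 5 of 26 genes (Cldn5, Tek, Etv2, Sox7 and Egfl7), where 5.09% of all genes did so, and above in 1, where 5.97% did so. That 1 gene was again Vwf, with only a bound in CM-Het. The differences were -0.42 for Cldn5, -0.37 for Tek, -0.25 for Sox7 and -0.21 for Egfl7. CM-Het and CM-CKO arrays lay on different beadchips, which cannot be told apart from the genotypes here.

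CM-Het against Control compared Cre, which deletes the floxed copy in mesoderm, with no Cre beside a wild-type Twist1 copy. Of 26 genes, 19 lay lower in CM-Het (median log2 difference -0.20, against -0.02 over all genes), and limma called 0, where 0.412% of all genes were called. At an unadjusted p under 0.05, 9 lay lower and 3 higher, where 8.40% and 7.43% of all genes did so. The lower genes were Cdh5 (-0.42), Gja4 (-0.81), Eng (-0.63), Sox18 (-0.27), Vwf, Fli1 (-0.36), Pecam1 (-0.42), Plvap (-0.38) and Esam (-0.21). Vwf was not above background on any CM-Het array, so its place in that count is no measured difference. The higher genes were Esm1 (0.66, SE 0.20, limma adjusted p = 0.145), Etv2 and Lmo2 (0.26).

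Every CM-Het array lay below every Control array in 3 of 26 genes, where 7.57% of all genes did so, and above in 2, where 6.91% did so. The groups were on different beadchips, which cannot be told apart from the genotypes. CM-Het 3 was the lowest of its group in 17 of 26 genes.

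CM-Het and Het arrays were on the same beadchip. Of 26 genes 21 lay lower in CM-Het (median log2 difference -0.16), where 51.6% of all genes did so (median -0.005). Limma called 0, as it did of all genes (0%). Fli1, an ETS factor, read 5.32, 4.95 and 4.92 in CM-Het and 5.56, 5.47 and 5.65 in Het, a difference of -0.49 (SE 0.16). These are low signals, although Fli1 was detected on all 14 arrays. Cdh5 differed by -0.37 (SE 0.14) and Esm1 by 0.55 (SE 0.22), and the limma adjusted p of all 3 was 0.999. The other detected Cdh5 probe had a mean of 5.67 in CM-Het and 5.77 in Het. At an unadjusted p under 0.05, 2 genes lay lower and 1 higher, where 2.05% and 1.90% of all genes did so.

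Het against Control compared a deleted with a wild-type second copy in the absence of Cre. Het and Control arrays lay on different beadchips, which cannot be told apart from the genotypes here. Of the list, 15 of 26 genes lay lower and 11 higher (median log2 difference -0.02, against -0.01 over all genes). Limma called 0, as it did of all genes (0%), and 0 genes had an unadjusted p under 0.05, where 12.4% of all genes did. The smallest p-values belonged to Vwf, Lmo2 (0.19), Eng (-0.40, 95% interval -0.89 to 0.09) and Gja4 (-0.49, 95% interval -1.10 to 0.12). Vwf was not above background on any Het array, so its place there is no measured difference. Differences of the size seen for Lmo2, Eng and Gja4 cannot be told from 0 with these arrays.

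Cre can be set against no Cre on both Twist1 backgrounds with no array used in both comparisons. Each difference with Cre includes the loss of the floxed copy. CM-CKO against Het and CM-Het against Control have 16 of 26 genes lower in both, 2 higher in both and 8 in opposite directions, while 21.1% of all genes lay lower in both. Cldn5 (-0.66 and -0.37), Emcn (-0.66 and -0.25), Icam2 (-0.55 and -0.30) and Fli1 (-0.42 and -0.36) were lower on both, and Esm1 was higher on both (0.85 and 0.66). Etv2 went in opposite directions, as did Gja4. In the other pairing that shares no array, CM-CKO against Control and CM-Het against Het, 20 of 26 genes lay lower in both, 2 higher in both and 4 in opposite directions, while 25.8% of all genes lay lower in both.

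**Figure D5:**
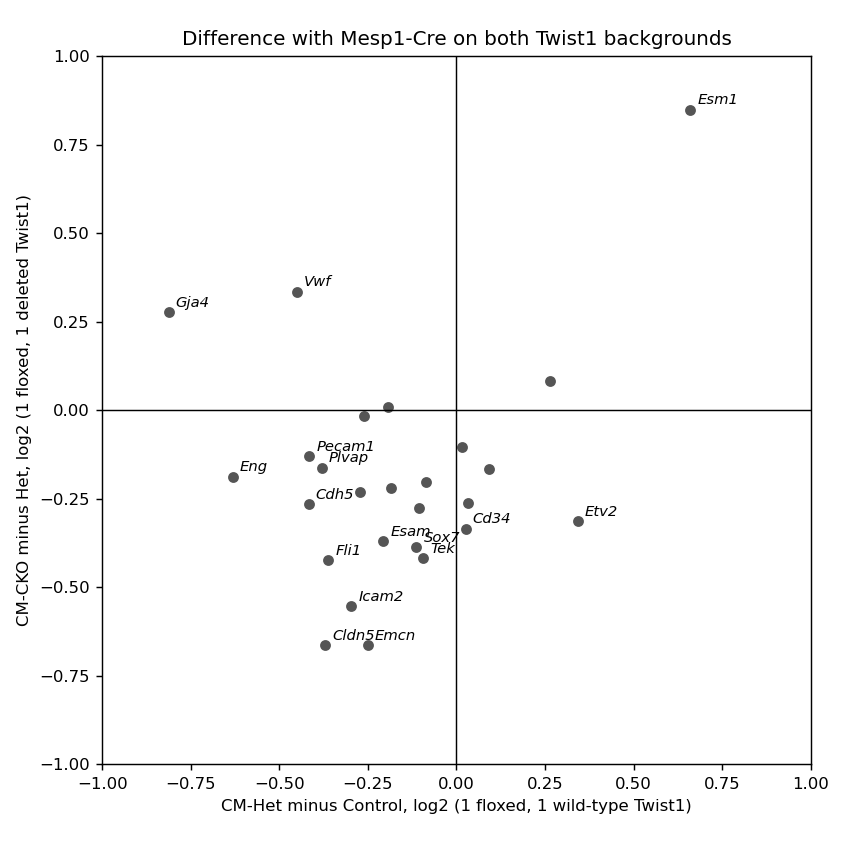
Log2 difference of each tested endothelial gene with Mesp1-Cre where the second Twist1 copy is wild type (horizontal, CM-Het minus Control) and where it is deleted (vertical, CM-CKO minus Het); each point is 1 gene, and no array enters both axes. Of 26 points 16 lie in the lower left, Esm1 lies far to the upper right, and Gja4, Vwf and Etv2 lie on opposite sides of 0 on the axes, with Vwf not above background in CM-Het or Het.

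Averaged over both backgrounds, heads with Cre had lower means in 23 of 26 genes (median log2 difference -0.23, against 0.00 over all genes). Esm1 rose by 0.75 (SE 0.14, limma adjusted p = 0.0235) and was the only call, beside 0.263% of all genes called and 0.0351% called higher. Emcn (-0.46, SE 0.10, limma adjusted p = 0.0952), Esam (-0.29, limma adjusted p = 0.125), Cldn5 (-0.52), Icam2 (-0.43), Cdh5 (-0.34), Fli1 (-0.39) and Sox7 (-0.25) did not pass. At an unadjusted p under 0.05, 14 lay lower and 2 higher, where 3.88% and 3.36% of all genes did so. With the beadchip as a fixed block Esm1 differed by 0.79 (limma adjusted p = 0.0712), and as a random effect by 0.75 (limma adjusted p = 0.0231). The random-effect fit is no adjustment for a beadchip shift, as said above. Leaving out an array removed its call in 9 of 14 cases (highest limma adjusted p 0.101 without Het 1).

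The deleted copy averaged over Cre gave a median log2 difference of -0.03, with 17 of 26 genes lower and 0 called by limma, where 0.0878% of all genes were called. Egfl7 (-0.15, SE 0.05), Aplnr (-0.48), and Etv2 (-0.20) had an unadjusted p under 0.05, all lower, where 3.89% of all genes lay lower and 3.35% higher.

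The interaction, which asks whether the difference with Cre depends on the second Twist1 copy, called 0 of 26 genes, where 1.00% of all genes were called. Etv2 came nearest: the difference with Cre was -0.31 beside the deleted copy and 0.34 beside the wild-type copy, an interaction of -0.66 (SE 0.17, limma adjusted p = 0.0714). Gja4 had an interaction of 1.09 and Ramp2 of -0.29. At an unadjusted p under 0.05, 2 genes lay lower and 2 higher, where 7.69% and 8.14% of all genes did so, and 1 of the higher was Vwf, which was below background in CM-Het and Het. A shift between beadchips 1 and 2 adds to this contrast and cannot be told apart from it.

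Of 40 other vascular genes, 37 were tested (not Calcrl, Acvrl1 and Procr). In CM-CKO against Control 23 of 37 lay lower (median log2 difference -0.07), where 49.4% of all genes did so (median 0.00). Limma called 3 lower and 1 higher, beside 0.518% and 0.184% of all genes. Vegfc, a growth factor for lymphatic and early vessels that mesenchyme also makes, fell by 1.30 (SE 0.11, limma adjusted p = 2.90e-06). Tal1, a bHLH factor of blood and vessel precursors, fell by 0.75 (SE 0.13, limma adjusted p = 0.00845), and its 4 CM-CKO arrays at 5.83 to 6.27 lay below the 4 Control arrays at 6.60 to 6.92. Nos3, the endothelial nitric oxide synthase, fell by 0.52 (SE 0.11, limma adjusted p = 0.0270). Hey1, a NOTCH target of arterial endothelium and of other tissues, rose by 0.45 (SE 0.09, limma adjusted p = 0.0178).

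Efnb2, an arterial ephrin, differed by 0.48 (limma adjusted p = 0.130) and Vegfb by -0.19 (limma adjusted p = 0.215). Against Het, 16 of the 37 lay lower and 21 higher (median 0.01, as over all genes). Only Vegfc was called, with a difference of -1.25, where 0.219% of all genes were called. Whether the identity genes and the other vascular genes differ was not tested. Of mural cell markers (7 of 8 tested), 4 lay lower and 3 higher in CM-CKO against Control (median log2 difference -0.10). Against Het, 3 lay lower and 4 higher (median 0.02). The only one called against Control was the pericyte receptor gene Pdgfrb, which head mesenchyme also expresses. It fell by 1.08 (SE 0.17, limma adjusted p = 0.00259). The 3 endocardial genes had a mean between 6.59 and 6.86 in Control and between 6.54 and 6.73 in CM-CKO.

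The 6 genes that were not tested were Clec14a and Ecscr among the surface proteins, Apln, S1pr1 and Dll4 among the receptors and ligands, and the ETS factor Erg. Their probes were detected on at most 1 array each, so these arrays give no level for them. With no filter on dim probes all 32 genes entered, of which 26 lay lower in CM-CKO than in Control and 1, Esm1, was called.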

How the data were processed

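Total RNA for 14 arrays was purified on QIAGEN micro columns and biotin-labelled by the Illumina protocol, per the labels' protocols. The deposited signal intensity is a linear summary per probe, not normalized, per the file headers and its values (median 92.3 to 116 per array); the scanner is not given in the sources. A detection p-value was deposited beside each intensity. It does not follow the intensity (rank correlation -0.105 to -0.0946), so it was put back by rank within each array. A deposited table of log2 values, equal to quantile normalized log2 intensity within 0.0329, has a median of 6.72 and was used as an alternative.

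The neqc function (offset 16) of limma 3.58.1 in R 4.3.3 did the background correction and quantile normalization of the intensities. Between 18242 and 19455 of 45281 probes were detected per array, and the number of arrays limits the precision. Of all probes 34885 have 1 symbol, 18 several and 10378 none; the symbols of 34852 probes were found in the RefSeq table, and 0 were updated. Arrays were grouped by the genotype label. Group means were fitted over all 14 arrays (lmFit, eBayes with a trend), with Benjamini-Hochberg adjustment over 11394 genes, called under 0.05; single genes were also compared by exact permutation tests, two-sided. Probes below background on all arrays of a group give a bound: the mean of the brighter group is set against the dim probe or the lowest detected probe of each array, whichever reads higher.

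The genes named are, in each comparison, the called ones and those of smallest p up to 12, and for other vascular genes the called ones and the 6 of smallest p in CM-CKO against Control. Members and lists were chosen with earlier results of these data known. Replicate numbers were checked for pairing: same-numbered arrays deviated together in 4 of 19 pairs (correlation over 0.1; range -0.237 to 0.251), so they were not taken to pair the samples. Alternatives covered background correction, filter, probe choice, arrays in the fit, variance trend, beadchip, replicate block, heart and yolk sac covariates and each array left out. The fit of CM-CKO against Control was also run on simulated data with independent noise, no beadchip effect and changes larger than most seen here. That run does not cover the beadchip layout or small differences.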

Additional observations from a re-analysis of the deposited data

Results flagged for a closer look

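In groups of 4 arrays, 4 of 52 sets of values (26 genes in Control and in CM-CKO) held an array far from the other 3, by a gap to its nearest neighbour that was nearly the whole range (Dixon's criterion at 95%). Chance alone flags some sets by this criterion. Pecam1 read 5.98 in CM-CKO 2, above 5.39 to 5.45 in the other CM-CKO arrays. Tie1 read 4.59 in CM-CKO 1, below 5.28 to 5.39. Icam2 read 6.74 in Control 2, below 7.17 to 7.26, and Egfl7 read 11.2 in Control 4, below 11.3 to 11.4.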

How the results depend on the processing

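The median difference of the endothelial genes stayed below 0 in CM-CKO against Control in all 31 alternatives (-0.309 to -0.154), and in all 28 of CM-CKO against Het, CM-Het against Control and Cre averaged. It changed sign under some alternatives in Het against Control and in CM-CKO against CM-Het, and in 1 of 28 for the deleted copy averaged over Cre (0.00748 without Control 1 and Control 3). Both without background subtraction and in the authors' table the medians shrank to -0.154 (CM-CKO against Control), -0.129 (CM-CKO against Het) and -0.123 (Cre averaged), and in CM-Het against Control to -0.0971 and -0.0972. Without Control 1 and Control 3, chosen after seeing the data, they were -0.176 (CM-CKO against Control), -0.129 (Cre averaged) and 0.0885 (Het against Control), and Gja4 turned to 0.109 in Het against Control. The deposited order of detection p kept 20 genes with a median of -0.181; it took another Egfl7 probe, and Egfl7 turned to 0.123 (CM-CKO against Control), 0.0338 (Cre averaged) and 0.0896 (deleted copy averaged).

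The 3 calls of CM-CKO against Control became 1 with no filter, the deposited order, every probe, no variance trend, the replicate block, the yolk sac covariate, without Control 1 and CM-CKO 3 and 4 (chosen after seeing the data) and without Control 1 and 3. They became 0 with only the compared groups, the beadchip block, beadchip 2 alone or without its CM-CKO arrays. Only Egfl7 and Esm1 were called in the authors' table and without background subtraction. With detection on all 14 arrays only Cldn5 and Egfl7 were called. The 1 call of Cre averaged became 0 with no filter, the deposited order, detection on all 14 arrays, no trend, the beadchip block and the replicate block. With the beadchip as a random block the 3 calls became 4 (Emcn gained), and the call of Cre averaged stayed. Calls appeared against CM-Het (1), against Het (1) and in the interaction (2, of which 1 was Vwf, below background in CM-Het and Het). The correlation of that block was negative (-0.0585). Its calls over all genes rose from 114 to 714 in the interaction and from 0 to 83 in Het against Control. Calls also appeared with the heart covariate (1 against CM-Het, 1 against Het) and the yolk sac covariate (1 against Het, 1 in CM-Het against Control). Leaving out 1 array gave 0 to 3 calls in CM-CKO against Control, 0 to 3 in Cre averaged and 0 to 1 against CM-Het. Esm1 kept its call in 21 of 30 alternatives, Egfl7 in 8 of 31 and Cldn5 in 5 of 31. Causes of these shifts were not tested. With the replicate block the median of CM-CKO against Control was -0.276. Low signal limits Esm1, Tie1 and Vwf, which were not detected on every array. Robo4 and Fli1 were detected on all 14 arrays but also read low, with means of 5.21 and 5.30.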
